A study of Homo sapiens with 6 samples.

Results

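The genes described here are 10 enzymes of serine synthesis, folate one-carbon metabolism and proline synthesis. They were taken by gene symbol from the deposited expression table, and all 10 were found among its 25268 symbols. The group was drawn up by function and with earlier results of these data known. RNA was measured by sequencing in A673 cells, an Ewing sarcoma line whose EWSR1-FLI1 fusion encodes the transcription factor EWS-FLI1. Every culture was transfected for 72 h with esiRNA, a pool of short interfering RNAs. esiGFP, against a gene these human cells lack, was the control, esiFLI1 targeted the fusion through its FLI1 part, and esiUSP9X targeted the deubiquitinase USP9X. Each group had 2 libraries, numbered replicate 1 and replicate 2, for 6 in all, from a single cell line. The labels do not say that replicates were separate cultures, and a p-value here covers only the spread between these libraries.

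Cells make serine from a glycolytic intermediate in 3 steps, catalysed by PHGDH, PSAT1 and PSPH. Serine hydroxymethyltransferases then pass a carbon unit from serine to tetrahydrofolate, SHMT2 in mitochondria and SHMT1 in the cytosol, and glycine is left over. In mitochondria MTHFD2 and MTHFD1L oxidise that unit and release it as formate, which MTHFD1 in the cytosol returns to folate for making purines and thymidylate. ALDH1L2 burns mitochondrial one-carbon units to CO2 while making NADPH, and PYCR1 carries out the last step of proline synthesis in mitochondria. Many of these genes are known targets of ATF4, a transcription factor that responds to amino acid shortage.

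Promoter sequences from RefSeq (GRCh38.p14, 250 bases before to 50 after each start, 300 in all) were found for 6 of the 10 genes. These were PHGDH, PSAT1, SHMT1, MTHFD1, MTHFD1L and MTHFD2. PSPH, SHMT2, ALDH1L2 and PYCR1 were not matched. Both strands were searched for 3 motifs. TGATGNAA is the core of the C/EBP-ATF element bound by ATF4, CACGTG is the E-box bound by helix-loop-helix factors, and GGAAGGAA is a tandem copy of the ETS core bound by EWS-FLI1 in microsatellites. The sequences shown are PSAT1, whose RNA differed most between the groups, over the 150 bases before its start, and the 30 bases of MTHFD1 and MTHFD1L that hold a match. They run 5′ to 3′ on the plus strand, at chr9:78296975-78297124, chr14:64388323-64388352 and chr6:150866339-150866368, with motif matches in capitals.
PSAT1: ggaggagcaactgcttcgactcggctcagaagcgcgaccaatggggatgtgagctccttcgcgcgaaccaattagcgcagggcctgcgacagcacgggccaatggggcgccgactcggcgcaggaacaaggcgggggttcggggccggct
MTHFD1: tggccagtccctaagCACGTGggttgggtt
MTHFD1L: gcagccggccgccggctcTGATGCAAtcgc

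TGATGNAA was found in 1 of the 6 genes, MTHFD1L, and in 3.62% of all 35116 promoter entries of that length. Each enzyme was counted once, while the shares count every annotated start. MTHFD1L has several starts, so the counts and the shares are not on the same basis. The MTHFD1L match began 129 or 90 bases before the start or 24 bases after it, depending on which annotated start is used. CACGTG was found in MTHFD1, 15 bases before the start, and in MTHFD1L, against 7.26% of all entries. GGAAGGAA was in 0 of the 6, against 3.67% of all entries. The PSAT1 window held no match to any of the 3, which says only that these letters are not in it. No match overlapped a match of another motif, and a match describes the sequence only.

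Expression is given as FPKM, a measure of sequenced fragments divided by transcript length and library size. Dividing by length allows a rough comparison between genes, but it leaves differences in base composition uncorrected. The read depth behind the values is unknown. A table-wide filter, 1 FPKM or more in 2 or more libraries, kept 12169 genes, and all 10 enzymes passed. ALDH1L2 passed narrowly, since it was below that level in an esiFLI1 library. FLI1 RNA was 24.1 and 36.4 FPKM in the esiGFP libraries against 12.7 and 14.1 in esiFLI1 (-1.09 on the log2 scale, blocked limma adjusted p = 0.000439). USP9X was 20.6 and 26.5 in esiGFP against 5.31 and 7.10 in esiUSP9X (-1.77, blocked adjusted p = 0.000453), and neither was called without the block described below (0.128 and 1). USP9X in esiFLI1 was at 26.2 and 37.7 FPKM, a log2 difference of 0.41 from esiGFP (blocked adjusted p = 0.0128). Its libraries overlapped with those of esiGFP, and it was not called without the block (0.596). FLI1 in esiUSP9X was at -0.07 (blocked adjusted p = 0.887). EWSR1 was at -0.31 in esiFLI1 and -0.01 in esiUSP9X (blocked adjusted p = 0.0478 and 0.985). The esiFLI1 value of EWSR1 was not called without the block (0.484). Of 8 Ewing sarcoma markers, 7 were kept and their sum was 859 to 902 FPKM in esiGFP, 391 to 421 in esiFLI1 and 853 to 866 in esiUSP9X. CD99, a surface marker of the tumour, was listed at 0 in every library, which does not show that the cells lack its RNA. Of 6 endothelial, 5 blood and 4 neural markers, 1 each was kept, and of 8 epithelial markers 2 were kept, KRT8 and KRT18. Endothelial markers summed to 0.286 to 1.20 FPKM in esiGFP and 2.13 to 3.65 in esiFLI1, and blood markers to 2.73 to 3.80 and 4.51 to 7.59. In esiUSP9X these sums were 0.270 to 0.425 and 1.85 to 1.97. Epithelial markers summed to 148 to 200 in esiGFP, 142 to 246 in esiFLI1 and 162 to 230 in esiUSP9X, and neural markers to 2.32 to 3.07, 1.37 to 2.50 and 2.21 to 3.30. CDH1, KRT5, CD3E and HBB were listed at 0 in every library. Their part in the results was not tested.

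In control cells 9 of the 10 enzymes were well expressed, and PHGDH and PSAT1 stood above 97.5% and 97.1% of all kept genes. In order of the esiGFP mean, PHGDH was at 247 FPKM, PSAT1 at 216, MTHFD2 at 177, SHMT2 at 158 and MTHFD1 at 130. PYCR1 (53.6), MTHFD1L (52.1), PSPH (44.1) and SHMT1 (24.3) followed, and ALDH1L2 was last at 1.57. The control libraries of PHGDH and PSAT1 overlapped, as did those of MTHFD2 and SHMT2, and PYCR1 overlapped with MTHFD1L and PSPH. PHGDH also overlapped with MTHFD2, and in esiGFP 2 it was below both PSAT1 and MTHFD2 (187 against 223 and 188). The other neighbours in this order did not overlap. The mitochondrial SHMT2 was thus more abundant than the cytosolic SHMT1, by 6.10 and 7.06 times in the esiGFP libraries.

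**Figure D1:**
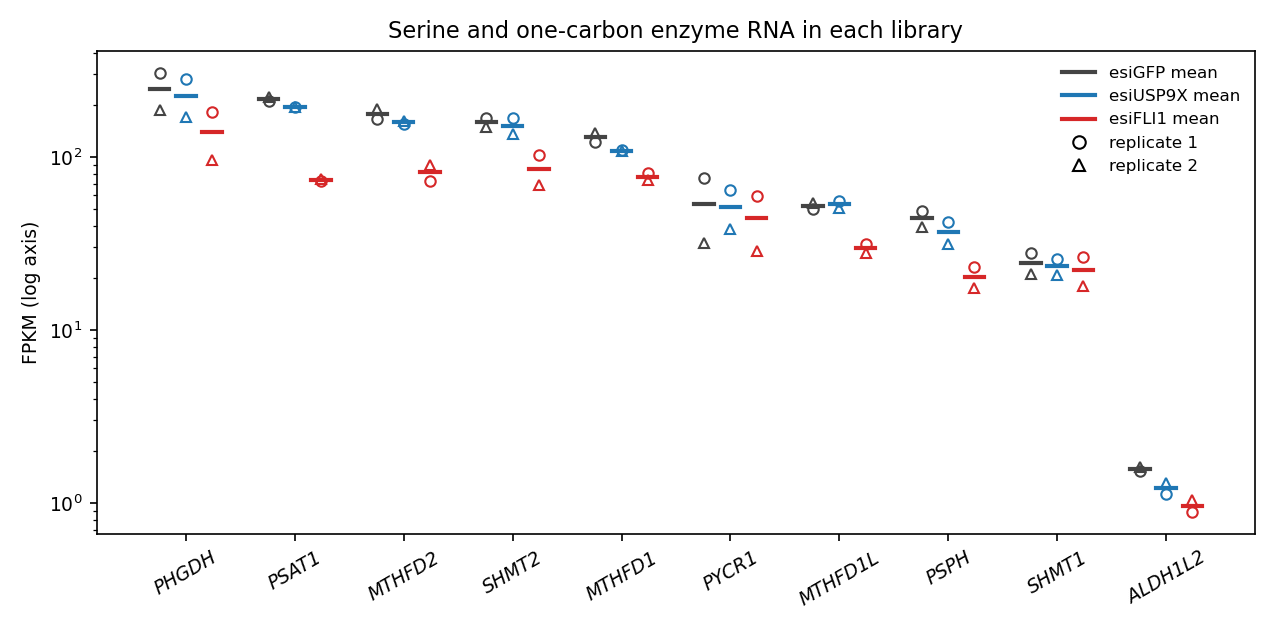
FPKM on a log axis for each enzyme, ordered by the esiGFP mean; circles and triangles are replicates 1 and 2 and bars are group means of 2 libraries. The esiFLI1 libraries lie below the other groups for PSAT1, MTHFD2, SHMT2, MTHFD1, MTHFD1L, PSPH and ALDH1L2, while PYCR1 and SHMT1 overlap between all groups.

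RNA differences of these enzymes after esiFLI1 transfection were read from esiFLI1 against esiGFP. All 3 enzymes of serine synthesis were lower, as were SHMT2, MTHFD2, MTHFD1L and MTHFD1, which carry one-carbon units through mitochondria and back. Their log2 values fell by 0.75 to 1.54. The other enzymes changed less, with SHMT1 at -0.14, PYCR1 at -0.24 and ALDH1L2 at -0.39. Of the 10 enzymes, 8 fell in limma's fit with the replicate number as a block, in which 21.6% of all genes tested were lower and 20.6% higher. Without the block 1 of the 10 fell, PSAT1, where 0.23% of all genes were lower and 2.58% higher. In neither fit was an enzyme higher (0 of 10). The libraries of the groups did not overlap for 8 of the 10, all lower in esiFLI1, as for 17.3% of all genes. The median log2 change of the 10 enzymes was -0.82, against -0.03 for all genes tested. Log2 changes are on the log2(FPKM + 1) scale, and p-values are two-sided and Benjamini-Hochberg adjusted over all genes tested. In bulk samples, fewer cells of a type and less RNA per cell cannot be told apart.

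PSAT1, the aminotransferase of serine synthesis, was at 209 and 223 FPKM in esiGFP, 72.6 and 75.0 in esiFLI1, and 195 and 194 in esiUSP9X. Both esiFLI1 libraries were far below the other 4, at 34.7% and 33.6% of the control with the same replicate number. The log2 change was -1.54 (SE 0.15, limma adjusted p = 0.0149; blocked SE 0.09, blocked adjusted p = 2.99e-05), and 0.468% of all genes tested had a lower value. Without a block the call ended when any 1 of the 6 libraries was left out (limma adjusted p 0.0695 to 0.154), while with the block it held in each case.

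PHGDH, the dehydrogenase that starts the pathway, was at 307 and 187 FPKM in esiGFP, 183 and 95.8 in esiFLI1, and 281 and 170 in esiUSP9X. Replicate 1 was higher than replicate 2 in every group, and the esiFLI1 library of replicate 1 came close to the control library of replicate 2. Within a replicate number the esiFLI1 value was 59.5% and 51.3% of the control. PHGDH fell by 0.85 in the blocked fit (SE 0.10, blocked adjusted p = 0.000601), but was not called in limma without it (SE 0.45, adjusted p = 0.478). Without the block it was -0.49 without esiGFP 1, -1.31 without esiFLI1 1 and -0.39 without esiFLI1 2, and with the block -0.75 to -0.95 over the 6 libraries left out in turn.

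PSPH, the phosphatase that releases serine, was at 49.0 and 39.3 FPKM in esiGFP, 23.1 and 17.4 in esiFLI1, and 42.1 and 31.5 in esiUSP9X. The esiFLI1 libraries were the lowest of the 6. PSPH fell by 1.09 in the blocked fit (SE 0.09, blocked adjusted p = 0.000146; adjusted p = 0.117 in limma without a block), with -1.05 and -1.13 in the replicates.

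The hydroxymethyltransferases of the compartments gave different values. SHMT2, the mitochondrial enzyme, was at 169 and 148 FPKM in esiGFP, 102 and 68.5 in esiFLI1, and 168 and 135 in esiUSP9X. It fell by 0.91 in the blocked fit (SE 0.11, blocked adjusted p = 0.000777), with an adjusted p of 0.173 in limma without a block. Its esiFLI1 libraries were below every other library, while those of esiGFP and esiUSP9X overlapped. SHMT1, its cytosolic counterpart, was at 27.7 and 20.9 FPKM in esiGFP, 26.6 and 17.9 in esiFLI1, and 25.7 and 20.8 in esiUSP9X. All groups overlapped, and the log2 change of SHMT1 was -0.14 with a blocked 95% interval of -0.38 to 0.10 (limma adjusted p = 0.893, blocked adjusted p = 0.320). The ratio of SHMT2 to SHMT1 was 6.10 and 7.06 in esiGFP, 6.55 and 6.49 in esiUSP9X, and 3.84 and 3.82 in esiFLI1. The esiFLI1 ratios were below the other 4, and no test of the ratio was run.

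MTHFD2, the mitochondrial dehydrogenase and cyclohydrolase, was at 166 and 188 FPKM in esiGFP, 72.7 and 90.3 in esiFLI1, and 156 and 162 in esiUSP9X. Its esiFLI1 libraries were at 43.9% and 48.0% of the control, and it fell by 1.11 in the blocked fit (SE 0.10, blocked adjusted p = 0.000195; 0.0549 in limma without a block). MTHFD1L, the mitochondrial formyltetrahydrofolate synthetase, was at 49.8 and 54.3 FPKM in esiGFP, 31.5 and 27.9 in esiFLI1, and 55.8 and 50.6 in esiUSP9X. It fell by 0.79 in the blocked fit (SE 0.11, blocked adjusted p = 0.00109; 0.102 in limma without a block). For both genes every esiFLI1 library was below every other library.

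MTHFD1, the cytosolic enzyme that joins formate to folate and interconverts the products, was at 122 and 137 FPKM in esiGFP, 80.4 and 73.2 in esiFLI1, and 109 and 108 in esiUSP9X. The esiFLI1 libraries were again the lowest of the 6, with the esiUSP9X libraries between them and the controls. MTHFD1 fell in esiFLI1 by 0.75 in the blocked fit (SE 0.11, blocked adjusted p = 0.00134; 0.104 in limma without a block). The ratio of MTHFD2 to MTHFD1 was 1.36 and 1.37 in esiGFP and 0.905 and 1.23 in esiFLI1, and 1.43 and 1.503 in esiUSP9X. That of MTHFD1L to MTHFD1 was 0.409 and 0.395 in esiGFP, 0.391 and 0.381 in esiFLI1, and 0.511 and 0.471 in esiUSP9X. Both ratios were highest in the esiUSP9X libraries, and neither was tested.

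ALDH1L2, the mitochondrial formyltetrahydrofolate dehydrogenase, was at 1.53 and 1.61 FPKM in esiGFP, 0.891 and 1.04 in esiFLI1, and 1.13 and 1.31 in esiUSP9X. The order of the groups was the same in both replicates, at levels near the filter. ALDH1L2 fell by 0.39 in the blocked fit (SE 0.12, blocked adjusted p = 0.0330; 0.282 in limma without a block), and a pseudocount of 1 understates a change at this level. That call ended without esiGFP 1, esiGFP 2, esiFLI1 1, esiFLI1 2 or esiUSP9X 2, and without esiUSP9X 1 it stood at the threshold. It also ended with the block and libraries rescaled without MIR6723, a symbol described below. Over the 11 fits with the block the ALDH1L2 value was -0.65 to -0.30.

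PYCR1, the proline enzyme, was at 75.4 and 31.8 FPKM in esiGFP, 59.8 and 28.7 in esiFLI1, and 64.7 and 38.1 in esiUSP9X. Its replicates differed more than its groups, and all groups overlapped. The log2 change in esiFLI1 was -0.24, with a blocked 95% interval of -0.53 to 0.05 (limma adjusted p = 0.910, blocked adjusted p = 0.161).

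**Figure D2:**
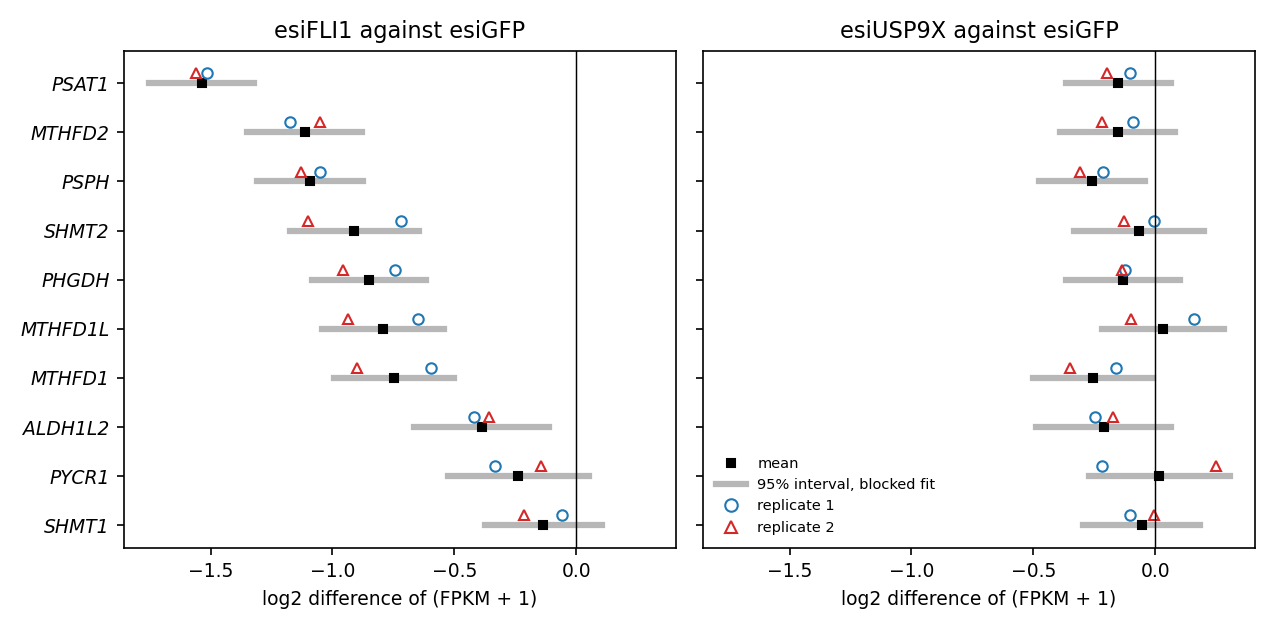
Log2 difference of (FPKM + 1) from esiGFP for each enzyme in esiFLI1 (left) and esiUSP9X (right); squares are means, grey bars the 95% interval of the blocked fit, and open symbols the difference within replicates 1 and 2. In esiFLI1 8 of the 10 bars lie wholly below 0, led by PSAT1 at -1.54, and SHMT1 and PYCR1 cross it. In esiUSP9X the means lie between -0.26 and 0.03.

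The replicates themselves differed along GC content, the share of G and C bases in a transcript. PYCR1 (61.8% GC) was higher in replicate 1 by 2.37, 2.08 and 1.70 times in esiGFP, esiFLI1 and esiUSP9X, and PHGDH (58.3%) by 1.64, 1.91 and 1.66 times. PSAT1 (42.3%), MTHFD2 (41.4%) and ALDH1L2 (42.1%) had mean log2 differences between replicates of -0.04, -0.18 and -0.09. Over 11470 kept genes with a transcript in GENCODE 29, GC content and the mean log2 difference of replicate 1 from replicate 2 had a Pearson r of 0.81, a description across genes that share the same 6 libraries. The esiFLI1 change and GC content had an r of -0.11. With each library's values corrected for GC content, an alternative chosen after seeing the data, limma without a block called 7 of the 10 enzymes lower in esiFLI1, where 7.89% of all genes were. ALDH1L2, SHMT1 and PYCR1 were those not called there, and PHGDH fell by 0.80 (adjusted p = 0.0431).

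**Figure D3:**
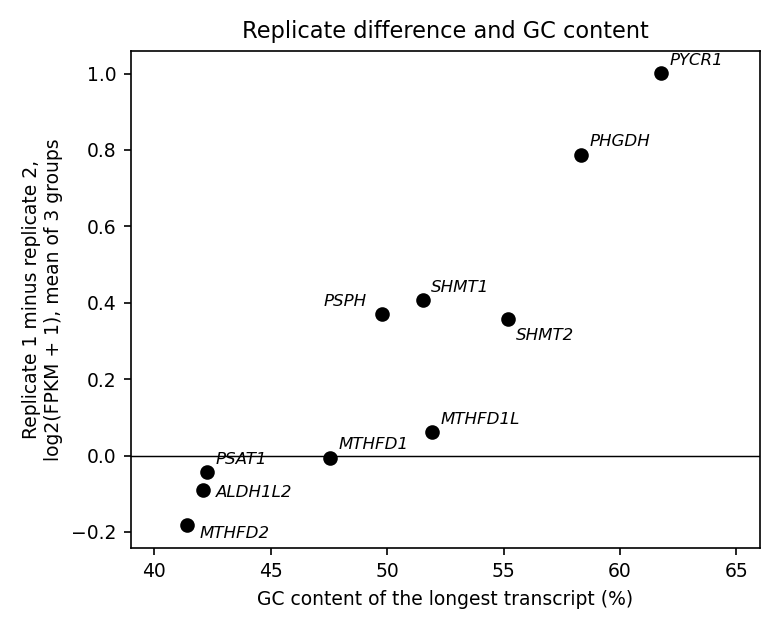
Difference between replicate 1 and replicate 2 in log2(FPKM + 1), averaged over the 3 groups, against the GC content of the longest transcript, for the 10 enzymes. PYCR1 (61.8% GC) has the highest difference, PHGDH (58.3%) the next at 0.79, and MTHFD2 (41.4%) the lowest, -0.18.

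The comparison of esiUSP9X with esiGFP was read for the same enzymes. It uses the same esiGFP libraries as the comparison above. None of the 10 enzymes was called in either direction (0 of 10) by limma without or with the block. Of all genes tested 0.0247% were higher and 0% lower without the block, and 0.074% and 0.164% with it. At an unadjusted p under 0.05, 0 of the 10 passed in limma without the block and 2 with it, PSPH (-0.26, blocked adjusted p = 0.386) and MTHFD1 (-0.25, blocked adjusted p = 0.449). The libraries did not overlap for 4 of the 10, PSAT1, MTHFD1, MTHFD2 and ALDH1L2, all lower in esiUSP9X, as for 7.82% of all genes. The median log2 change of the 10 was -0.14, against -0.01 for all genes.

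The blocked 95% intervals in esiUSP9X limit the size of a change that could be missed only if replicate numbers do pair the libraries. For PSAT1 the interval was -0.37 to 0.06, for PHGDH -0.37 to 0.10, and for PSPH -0.48 to -0.04. For MTHFD1 it was -0.50 to -0.01, for MTHFD2 -0.39 to 0.08, for SHMT2 -0.33 to 0.20 and for MTHFD1L -0.22 to 0.28. SHMT1 (-0.30 to 0.18), ALDH1L2 (-0.49 to 0.06) and PYCR1 (-0.27 to 0.31) complete the list. Without the block each interval was wider, at -1.43 to 1.46 for PYCR1, -1.28 to 1.01 for PHGDH and -0.54 to 0.24 for PSAT1. PSPH was then at -0.91 to 0.39 and MTHFD1 at -0.68 to 0.17. Each interval holds for its gene alone and is not corrected for the number of genes.

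The comparison of esiUSP9X with esiFLI1 tests the difference between the knockdowns directly. With the block 7 of the 10 enzymes were higher in esiUSP9X than in esiFLI1, where 20.2% of all genes were higher and 20.9% lower. Without it 1 was, PSAT1 (log2 difference 1.39, SE 0.15, limma adjusted p = 0.0194), where 0.419% of all genes were higher and 2.66% lower. Libraries did not overlap for 7 of the 10, all higher in esiUSP9X, as for 18.4% of all genes. With the GC correction and no block 6 were called higher, where 7.69% of all genes were. Blocked differences were 0.96 for MTHFD2 (SE 0.10, blocked adjusted p = 0.000342), 0.84 for SHMT2 (0.00107), 0.83 for PSPH (0.000458), 0.82 for MTHFD1L (0.000911), 0.72 for PHGDH (0.00123) and 0.49 for MTHFD1 (0.00832). The PHGDH difference was 0.62 to 0.82 with the block and 1 library left out, while unblocked fits gave 0.26 without esiFLI1 2, 0.36 without esiUSP9X 1, 1.08 without esiUSP9X 2 and 1.18 without esiFLI1 1. For SHMT2 the unblocked difference was 0.56 without esiFLI1 2. The MTHFD1 call ended without esiFLI1 2 (0.0780), esiUSP9X 1 (0.0803) or esiUSP9X 2 (0.0651). SHMT1 (0.08), ALDH1L2 (0.18) and PYCR1 (0.25) were not called, with blocked adjusted p of 0.567, 0.270 and 0.139. PSAT1 without a block lost its call when any 1 of the 6 libraries was left out (0.0671 to 0.242).

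Neighbouring pathways were read from 5 lists of 92 genes that exclude the 10 enzymes, drawn up with earlier results known. In esiUSP9X against esiGFP 0 genes of any list were called in either fit, and the counts that follow are for esiFLI1 against esiGFP, with blocked counts unless stated. The most abundant members there were near the control, with values from -0.21 for IMPDH2 to 0.10 for GLUD1 (blocked adjusted p = 0.530 and 0.742). TYMS, thymidylate synthase, was at -0.10, GGH -0.13, AHCY -0.07, SLC1A5 -0.14, ALDH18A1 0.10, ATIC -0.12, ATF4 0.07 and ATF5 0.01 on the log2 scale.

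Purine synthesis, the main user of cytosolic formate, had 13 of 13 genes tested, of which 11 fell with the block, where 21.6% of all genes were lower. Without a block 0 fell, and with the GC correction and no block 7 fell, where 7.89% of all genes were lower. The median log2 change of the list was -0.53. ADSSL1, a muscle-type adenylosuccinate synthase, was the 1 gene called higher, at 0.268 and 0.0796 FPKM in esiGFP, 3.30 and 2.59 in esiFLI1, and 0.373 and 0.247 in esiUSP9X. It passed the filter on low values only through its esiFLI1 libraries, so it had to differ there and no test is given. Among the 11, chosen for naming after their values were seen, ATIC and GART, which use formyl-folate directly, were at -0.66 and -0.45 (blocked adjusted p = 0.00219 and 0.00860). IMPDH2 was at -0.38 in the blocked fit and lost its call with quantile normalization or with rescaled libraries.

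Of 18 tested genes of serine, glycine and methionine handling, 9 fell and 3 rose with the block, where 21.6% of all genes were lower and 20.6% higher (median -0.31). Without a block 0 were called, or 8 lower and 2 higher with the GC correction, where 7.89% and 11.3% of all genes were. CBS and CTH, the enzymes that carry serine and homocysteine to cysteine, fell together. CBS went from 121 and 88.5 FPKM with esiGFP to 53.6 and 39.4 with esiFLI1 (-1.15, blocked adjusted p = 0.000135). CTH, at 5.23 and 5.31 FPKM with esiFLI1, had 43.7% and 44.2% of its control levels (-1.05, blocked adjusted p = 0.000233). SLC1A4 and SLC1A5, transporters that exchange serine and other neutral amino acids, fell by 1.12 and 1.08 (blocked adjusted p = 0.000220 and 0.000450). CTH was also the gene of this list called in esiUSP9X against esiFLI1 without a block (1.15, limma adjusted p = 0.0400).

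Of 17 tested folate genes, 3 fell and 1 rose with the block (0 without it; median -0.15). The count of lower genes is near the 21.6% of all genes and that of higher genes is under the 20.6%, so the list does not stand out, and the values that follow describe single genes. SLC19A1, the reduced folate carrier of the plasma membrane, went from 22.2 and 7.62 FPKM to 10.1 and 3.24, and fell by 1.04 (blocked adjusted p = 0.000490). Its replicates differed more than its groups. SLC25A32, the mitochondrial folate carrier, fell by 0.65 (0.00433), and GCSH, the lipoate carrier of the glycine cleavage system, by 0.39 (0.0282), a call lost with quantile normalization and with rescaled libraries. MTHFS, which returns formyl-folate to the active pool, rose by 0.68 (blocked adjusted p = 0.00869).

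Of 10 tested genes of the proline list 4 were higher and 0 lower with the block, where 20.6% of all genes were higher and 21.6% lower (0 without a block; median 0.18). With the GC correction and no block 2 were higher, where 11.3% of all genes were. P4HA2 and P4HA1, which hydroxylate proline in collagen, rose by 1.74 and 0.62 (blocked adjusted p = 4.10e-05 and 0.00194). OAT, which links ornithine to proline, rose by 0.47 (blocked adjusted p = 0.00727). With quantile normalization 4 were higher and 2 lower with the block, and 1 and 0 without it. The shares of all genes called with quantile normalization were not worked out.

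Among 17 tested regulators, 7 fell and 2 rose with the block, where 21.6% of all genes were lower and 20.6% higher (median -0.14, or 0.01 with rescaled libraries). Without a block 1 fell and 0 rose, where 0.23% and 2.58% of all genes did. With the GC correction and no block 6 fell and 1 rose, where 7.89% and 11.3% of all genes did. DDIT3, also known as CHOP, was at 36.8 and 34.5 FPKM in esiGFP, 12.6 and 12.9 in esiFLI1, and 34.8 and 32.5 in esiUSP9X (-1.41 in esiFLI1, limma adjusted p = 0.0243). ATF4, named here after its values were seen, was at 205 and 208 FPKM in esiGFP, 127 and 112 in esiFLI1, and 219 and 214 in esiUSP9X. ATF4 fell in esiFLI1 by 0.79 in the blocked fit (SE 0.10, blocked adjusted p = 0.000768; 0.0844 in limma without a block). ATF5 and TRIB3, an ATF4 relative and a pseudokinase of the same stress response, also named after their values were seen, fell further. ATF5 was at 21.3% and 16.8% of the control in the replicates (-2.36, blocked adjusted p = 1.08e-05; 0.0851 in limma without a block), and TRIB3 at 18.2% and 20.5% (-2.21, blocked adjusted p = 1.09e-05; 0.133 without). MYC, CEBPB and CEBPG, the other regulators that fell, are named in the same way. In the blocked fit MYC was at -0.85 (blocked adjusted p = 0.000533), CEBPB at -1.32 (9.05e-05) and CEBPG at -0.96 (0.000339). None of them was called in limma without a block (adjusted p = 0.164, 0.453 and 0.139). EIF2AK3, the kinase PERK that acts upstream of ATF4, named in the same way, was 1 of the 2 that rose (0.88, blocked adjusted p = 0.000670).

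Between the knockdowns, esiUSP9X against esiFLI1, the blocked counts were 10 higher and 1 lower for purine synthesis, 9 and 3 for the serine, glycine and methionine list, 3 and 2 for folate, 1 and 3 for proline and 8 and 1 for the regulators. Of all genes 20.2% were higher and 20.9% lower in that fit, and neither folate count was above these shares. The lower purine gene was ADSSL1, which passed the filter only through its esiFLI1 libraries, so that count is no result. P4HA2 was called there without a block as well (-1.93, limma adjusted p = 0.0398), as was DDIT3 (1.33, 0.0255).

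**Figure D4:**
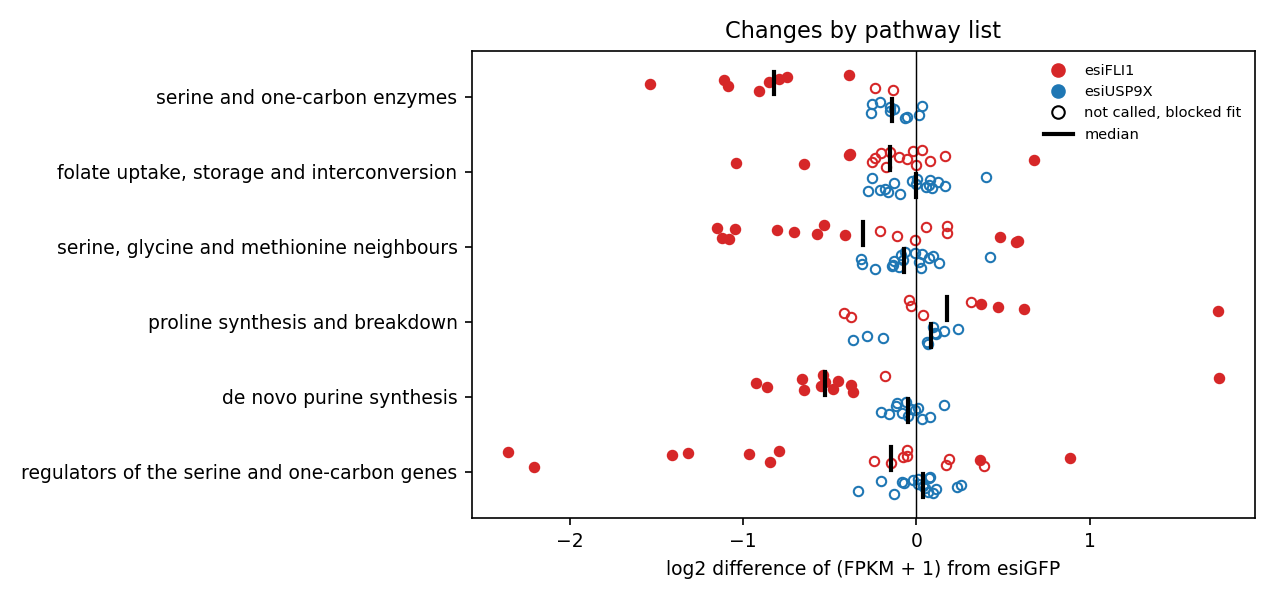
Log2 difference of (FPKM + 1) from esiGFP for the 10 enzymes and the 5 neighbouring lists in esiFLI1 (red) and esiUSP9X (blue); filled points are called in the blocked fit, open points are not, and black bars are medians. In esiFLI1 the medians run from -0.82 for the 10 enzymes to 0.18 for the proline list, and every esiUSP9X point is open.

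The 10 enzymes did not share a single profile. Across the 6 libraries the log2 values of PSAT1 correlated with those of MTHFD2 (r = 0.98), MTHFD1L (0.98) and MTHFD1 (0.95), and those of SHMT1 with PYCR1 (0.97), while PSAT1 and PYCR1 gave 0.18 and MTHFD2 and PYCR1 0.03. These r values describe 6 libraries that share groups and replicate numbers. The mean profile of the 10, centred per gene, was 0.41 and 0.19 in esiGFP, 0.30 and 0.05 in esiUSP9X, and -0.31 and -0.64 in esiFLI1. Among 10824 other genes with at least 1 FPKM in all 6 libraries, those most like that mean profile by Pearson r were RAP1GAP, a GTPase-activating protein for RAP1 (r = 0.999), PKP1, a desmosome protein (0.999), ACLY, which makes cytosolic acetyl-CoA (0.997), HRAS (0.997) and PGAM5, a mitochondrial phosphatase (0.997).

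MIR6723, a microRNA symbol, took 33.2% to 50.9% of the FPKM sum of a library, and the share of the 10 enzymes in the rest was 0.219% and 0.200% in esiGFP, 0.130% and 0.111% in esiFLI1, and 0.207% and 0.187% in esiUSP9X. Both esiFLI1 libraries were below the other 4. When libraries were rescaled without that symbol, the median log2 change of all genes in esiFLI1 went from -0.03 to 0.10 and that of the 10 enzymes from -0.82 to -0.67.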

How the data were processed

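Libraries were stranded, made from 2 µg of total RNA after ribosomal depletion and read as 75-nt single ends, per the labels' protocols. The deposited table holds FPKM made by the authors. TopHat, Cufflinks and Cuffdiff, with hg19 and GRCh37 as builds, are named in the submitters' processing notes. No version, annotation or strand setting is stated there, which leaves overlapping genes uncertain. Of the table, 1 stray line at the end was left out. Steps left by single reads were sought in values under 0.05 FPKM. The fullest bin of control ratios held 1.23%, so no depth was inferred.

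Log2(FPKM + 1) values of genes at 1 FPKM or more in 2 or more libraries entered limma 3.58.1 under R 4.3.3 (functions lmFit and eBayes, trend on), with 6 libraries and 3 group means in 1 fit. Calls need an adjusted p under 0.05. Deviations from group means correlated across genes at 0.647 (esiFLI1 and esiGFP), 0.589 (esiUSP9X and esiGFP) and 0.644 (esiUSP9X and esiFLI1), so replicate numbers were taken to pair the libraries, from the data and not the design, and a second fit used the number as a block. The procedure was tested on simulated data that held a replicate effect shared by the groups. That test cannot show whether replicate numbers pair the libraries. GC content came from GENCODE 29 (GRCh38, longest coding transcript), with no coordinates used. All genes were tested, and the naming rule took the 10 enzymes, FLI1, EWSR1 and USP9X, up to 4 called genes per list and comparison (unblocked calls first, or the most abundant where none was called), and the 5 genes most like the mean profile. Other genes are named after their values were seen. For 1 gene of the proline list the values are not reported here. The enzymes, lists, motifs and naming rule were chosen with earlier results of these data known. Alternatives are in the closing section.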

Additional observations from a re-analysis of the deposited data

How the results depend on the processing

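Of the 10 enzymes, 1 was lower in esiFLI1 than in esiGFP without a block. That count was 8 with the replicate block, 8 with the block and a pseudocount of 0.1, 8 with the block and quantile normalization, 7 with the block and libraries rescaled without MIR6723, 0 with only the 2 groups compared, and 7 without or 8 with the block after the GC correction. The count higher in esiUSP9X than in esiFLI1 was 1, and 7, 7, 8, 7, 0, 6 and 7 under the same settings in that order. Of all genes tested, 0.23% were lower in esiFLI1 without a block and 21.6% with it. After the GC correction 7.89% were lower without the block and 29% with it. The shares higher in esiUSP9X than in esiFLI1 were 0.419%, 20.2%, 7.69% and 27.6% in that order. Shares of all genes under the other settings, or with a library left out, were not worked out. Leaving out 1 library gave 0 to 8 lower in esiFLI1 (0 without a block and 7 or 8 with it) and 0 to 7 higher in esiUSP9X (0 without and 6 or 7 with it). The lone sample of such a group is assumed to vary like the others. PSAT1, PHGDH, PSPH, SHMT2, MTHFD1, MTHFD1L and MTHFD2 were lower in esiFLI1 in all 11 fits with the block. In the other comparisons and directions no enzyme was called under any setting (0 of 10). The cause of the differences between settings was not tested, and some settings also used fewer libraries.

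Signs changed only for values not called. With libraries rescaled without MIR6723, SHMT1 was 0.0117 in esiFLI1 against esiGFP and -0.0187 in esiUSP9X against esiFLI1, with or without the block. Leaving out a library gave SHMT1 -0.41 to 0.13 and PYCR1 -0.85 to 0.37 in esiFLI1 against esiGFP, and SHMT1 -0.19 to 0.35 and PYCR1 -0.26 to 0.77 in esiUSP9X against esiFLI1. In esiUSP9X against esiGFP it gave PHGDH -0.49 to 0.23, SHMT1 -0.25 to 0.14, SHMT2 -0.22 to 0.0884, MTHFD1L -0.11 to 0.17 and PYCR1 -0.59 to 0.63. ALDH1L2 could not be fitted with a filter of 5 FPKM. Depth is unknown and each group has 2 libraries, which limits what can be detected for ALDH1L2, the lowest of the 10.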
